A study of Mus musculus with 4 samples.

Results

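The genes described here are 9 transcription factors of microglial lineage and state, namely Sall1, Mef2a, Mef2c, Irf8, Spi1, Smad3, Bhlhe41, Bhlhe40 and Mitf. They were chosen by name, with earlier results of these data known, and all 9 were found once each among the 32285 genes of the 8 deposited matrices. CD45-positive primary cells had been sorted from 2 brain regions, thalamus and hippocampus (HPC), of the injured hemisphere of C57B6/J mice with cortical brain injury, and read by scRNA-seq, the sequencing of RNA from single cells in droplets. All mice carried the injury, so no uninjured tissue stood beside it, and the labels give no age, sex or time after injury. Each region was 1 library, in which the cells of 4 tagged sets were told apart by multiplexing oligos (n = 4 and 4 sets), so an effect of region and one of library cannot be told apart. The study pooled cells of 4 mice per region, but the labels do not tie a set to a mouse. After filtering, 24939 of 29190 cells were kept, with 9789875 to 26636526 UMIs (molecules counted once by their identifier) per set.

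Sall1 is a zinc finger factor that holds microglial identity in place, and Smad3 carries the TGF-beta signal on which that identity rests. Spi1 encodes PU.1, the Ets factor that myeloid cells need to form, and Irf8 is its partner. Mef2a and Mef2c are MADS-box factors found at microglial enhancers, Bhlhe40 and Bhlhe41 are paired basic helix-loop-helix repressors known from activated and lipid-handling macrophages, and Mitf belongs with Tfeb, Tfe3 and Tfec to the MiT family, which drives lysosomal genes. Disease-associated microglia (DAM) are a phagocytic state in which homeostatic genes such as P2ry12 and Tmem119 fall and genes such as Cst7, Lpl and Cd9 rise.

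In the annotation of the files' build (GRCm38, GENCODE M21) the members are all protein-coding. Sall1 lies at chr8:89027235-89044162, Mef2a at chr7:67231163-67372858, Mef2c at chr13:83504034-83667080, Irf8 at chr8:120736358-120756694 and Spi1 at chr2:91082390-91115756. Smad3 lies at chr9:63646767-63757994, Bhlhe41 at chr6:145858243-145865558, Bhlhe40 at chr6:108660629-108666925 and Mitf at chr6:97807052-98021349. Bases found only in introns make up 97.1% of Mitf, 95% of Smad3, 91.9% of Spi1, 90.4% of Mef2c, 89.6% of Mef2a, 68.9% of Sall1, 65.3% of Irf8, 25.3% of Bhlhe40 and 8.15% of Bhlhe41. Whether reads from introns were counted is not given in the sources used here. RefSeq promoter windows (GRCm38.p6, 250 bases before to 50 after a start) were matched by symbol for 7 of the 9 members, 14 windows in all. They were searched on both strands for the E-box CACGTG, a motif of the basic helix-loop-helix and MiT factors, and for GAGGAA, the core of PU.1 sites, which do not overlap in these windows. The E-box stood in 1 of the 14 windows and in 7.15% of all 32851 RefSeq windows, and GAGGAA stood in 3 of the 14 and in 28.3% of all. These shares are not above the background, and a match is a string of letters and no measured site. The 4 windows with a match are shown 5′ to 3′ on the gene's strand so that the letters found can be seen, with the motif in capitals: Bhlhe41 at chr6:145865371-145865670 (minus strand), Mef2a at chr7:67372809-67373108 (minus strand), and Mef2c at chr13:83503784-83504083 and chr13:83523406-83523705 (plus strand).
Bhlhe41: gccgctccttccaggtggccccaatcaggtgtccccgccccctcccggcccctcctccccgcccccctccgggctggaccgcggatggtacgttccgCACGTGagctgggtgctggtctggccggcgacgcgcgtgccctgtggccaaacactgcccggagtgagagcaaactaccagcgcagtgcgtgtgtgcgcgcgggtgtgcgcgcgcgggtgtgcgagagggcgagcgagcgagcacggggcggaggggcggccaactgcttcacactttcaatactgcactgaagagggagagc
Mef2a: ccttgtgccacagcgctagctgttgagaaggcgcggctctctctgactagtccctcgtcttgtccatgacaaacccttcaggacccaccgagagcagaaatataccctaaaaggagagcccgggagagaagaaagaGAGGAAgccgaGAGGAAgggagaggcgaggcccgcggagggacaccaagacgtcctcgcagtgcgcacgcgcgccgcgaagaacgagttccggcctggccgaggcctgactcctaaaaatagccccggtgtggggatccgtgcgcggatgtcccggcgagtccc
Mef2c, window 1: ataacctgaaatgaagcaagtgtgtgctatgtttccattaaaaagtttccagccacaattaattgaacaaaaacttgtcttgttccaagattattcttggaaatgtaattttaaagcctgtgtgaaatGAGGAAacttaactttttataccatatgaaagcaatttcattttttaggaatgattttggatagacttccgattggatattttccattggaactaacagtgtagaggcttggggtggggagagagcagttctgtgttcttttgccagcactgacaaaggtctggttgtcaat
Mef2c, window 2: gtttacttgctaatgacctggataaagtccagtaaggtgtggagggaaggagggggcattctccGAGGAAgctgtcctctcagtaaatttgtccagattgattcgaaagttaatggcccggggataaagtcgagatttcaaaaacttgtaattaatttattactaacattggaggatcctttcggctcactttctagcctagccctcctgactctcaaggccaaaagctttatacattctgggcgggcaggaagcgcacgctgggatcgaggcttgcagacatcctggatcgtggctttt

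First it was asked in which immune cells the factors were read. Cells were clustered without the members among the features, and 18696 cells were microglia-like by their markers, beside 3420 T or NK, 1011 neutrophil, 552 macrophage or monocyte, 344 dendritic and 112 B or plasma cells. All 10 genes of the microglial marker list were detected in both regions, at a summed level of 161 to 201 UMIs per 10,000 UMIs in a set's microglia-like cells. The monocyte list of 8 genes summed there to 0.238 to 1.23 per 10,000, and the list for border-associated macrophages to 0.0905 to 0.492, with Lyve1 at 0. Other lists summed higher, at 4.34 to 5.06 for neutrophils, 2.15 to 3.74 for astrocytes, 1.24 to 2.40 for B or plasma cells and 0.888 to 1.88 for dendritic cells. Levels below are UMIs per 10,000 UMIs of the cells named, for sets with at least 20 such cells. They are given by class as a description with no test.

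Sall1 was highest in microglia-like cells, with thalamus sets at 2.05 to 2.77 and HPC sets at 2.71 to 3.45. In every other class with 20 cells or more, no set exceeded 0.869. After thinning to 1500 UMIs per cell, Sall1 was seen in 29.3% of thalamus and 37.0% of HPC microglia-like cells (means over 4 sets) and in 2.66% and 6.41% of T or NK cells, which are not known to use it, at median depths of 4436.5 to 5018 and 3408.5 to 4843 UMIs. Bhlhe41 was also highest in microglia-like cells, at 0.766 to 0.872 against 0.0986 to 0.355 in T or NK cells, and at most 0.408 in a macrophage or monocyte set. Mef2c stood at 11.1 to 15.9 in microglia-like cells and at 2.57 to 6.98 in macrophage or monocyte cells, and in the 1 HPC set with enough B cells at 5.43. Mef2a reached 11.2 to 16.4 in microglia-like cells, 5.77 to 9.99 in macrophage or monocyte cells and 5.18 to 8.38 in neutrophils, with no overlap between microglia and the other classes. Mitf was 3.81 to 7.33 in microglia-like and 2.18 to 3.22 in macrophage or monocyte cells.

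The myeloid factors had other orders. Spi1 was highest in neutrophils, at 7.03 to 11, followed by dendritic cells (6.17 to 7.26) and macrophage or monocyte cells (5.80 to 7.06), which overlapped each other and the lowest neutrophil set, and then by microglia-like cells at 4.21 to 4.91. T or NK cells held 0.420 to 1.26. Irf8, which also steers the making of type 1 dendritic cells, was 4.19 to 5.20 in microglia-like cells, inside the wide dendritic range of 1.03 to 6.56, and at most 1.09 in a neutrophil set. Bhlhe40 differed from its paralog. It was lowest in microglia-like cells, at 0.0140 to 0.202, against 0.320 to 1.22 in macrophage or monocyte cells, 0.702 to 1.91 in neutrophils, 0.743 to 1.23 in T or NK cells and 1.07 to 2.09 in dendritic cells. Smad3 overlapped between microglia-like cells (1.13 to 1.4), T or NK cells (0.935 to 1.43) and neutrophils (0.210 to 2.75).

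**Figure D1:**
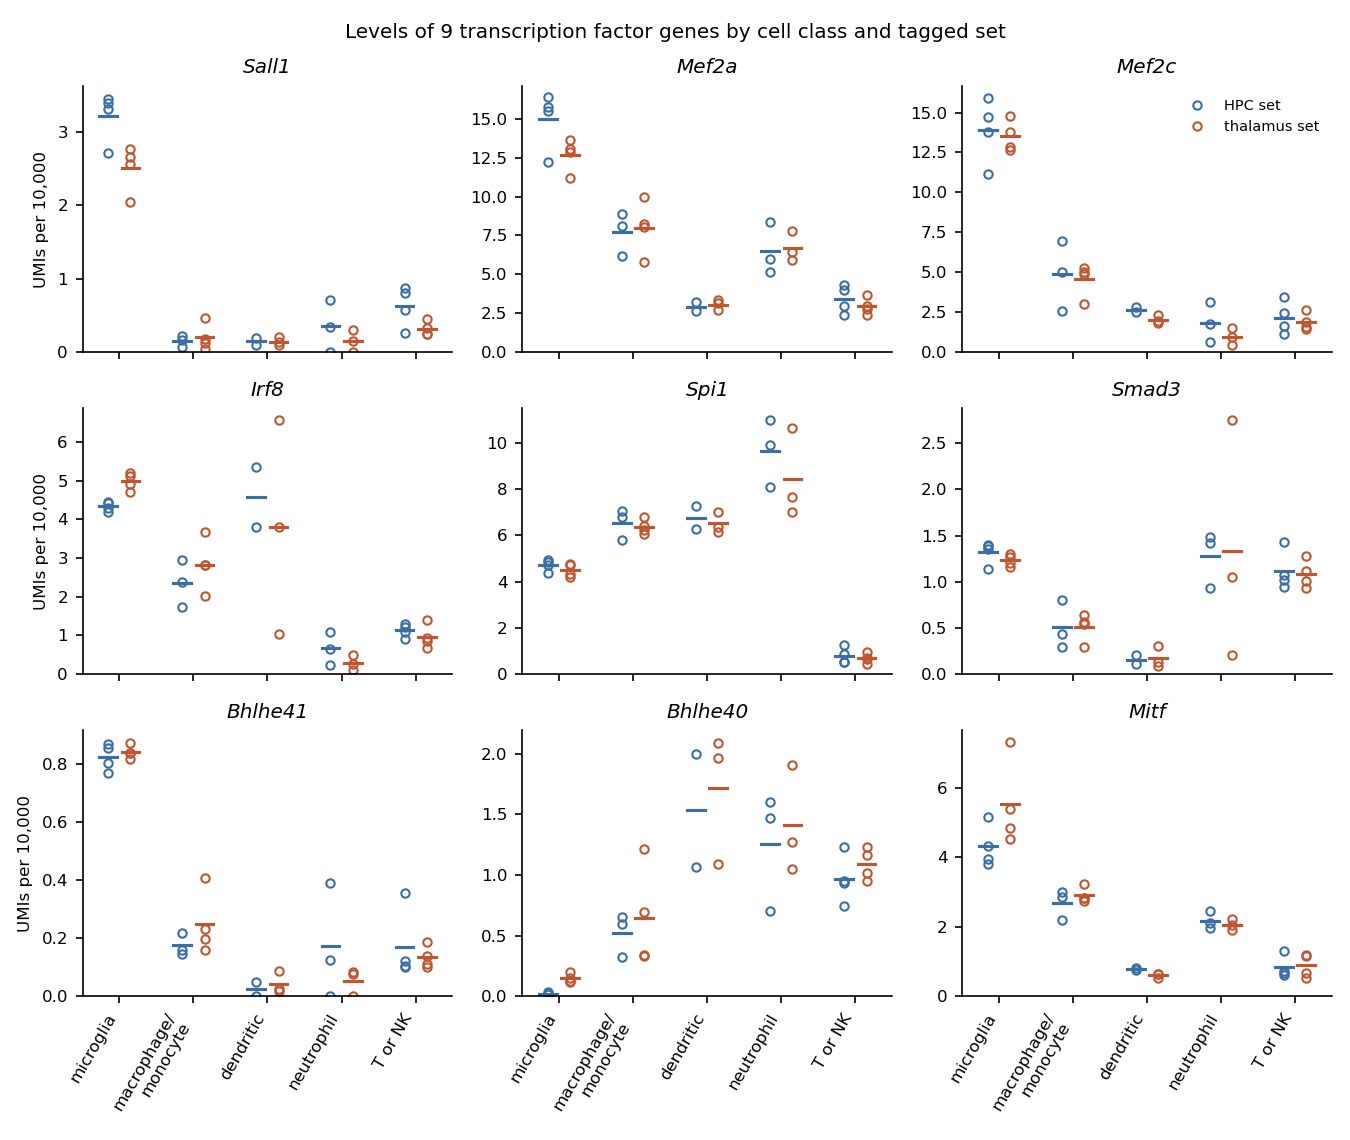
Level of each of the 9 genes in UMIs per 10,000 (vertical axis, from 0) by cell class, with 1 circle per tagged set of at least 20 cells (blue HPC, orange thalamus) and a bar at the mean. Sall1 stays at or under 0.869 outside microglia-like cells, whereas Spi1 is highest in neutrophils and Bhlhe40 is lowest in microglia-like cells.

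Next, microglial states were gated cell by cell on marker lists that hold none of the 9 members. After thinning to 1500 UMIs, a cell with at least 9 UMIs of the DAM list was DAM-high. A cell with at least 16 UMIs of the homeostatic list and at most 3 of the DAM list was homeostatic-high. Cells high in the interferon, major histocompatibility complex (MHC) class II or cycling lists were set apart first. DAM-high cells numbered 702, 236, 308 and 404 in thalamus sets 1 to 4 and 249, 60, 40 and 54 in HPC sets 1 to 4, and homeostatic-high cells 268 to 623 per thalamus set and 691 to 1593 per HPC set. In all, 1092 cells lay within 1 UMI of the DAM cut, so their state depends on the cut and on the thinning. Whether the state is a range or a type was not tested. Malat1, a nuclear RNA, moved with the state: it stood at 211 to 262 UMIs per 10,000 in homeostatic-high sums, at 198 to 220 in DAM-high sums of the HPC and at 139 to 155 in those of the thalamus. The monocyte list rose likewise from 0.207 to 0.422 per 10,000 in homeostatic-high sums to 0.707 to 3.05 in DAM-high sums. The microglial list fell from 195 to 219 to 139 to 166. Most of its genes are also in the homeostatic list of the gate, so the gate itself brings such a fall. The part of these shifts in the results was not tested, except where values without Malat1-poor cells are given.

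The 9 members split between the states. Each of the 8 sets gave a DAM-high and a homeostatic-high sum, compared within sets (edgeR's quasi-likelihood test, Benjamini-Hochberg adjustment over all genes tested, threshold 0.05), leaving the gate genes out. Of 10199 genes tested, 24.9% were called higher and 22.0% lower in DAM-high cells. Of the 9 members, 4 were called higher (Bhlhe40, Mitf, Bhlhe41 and Irf8), 3 lower (Sall1, Mef2a and Smad3) and 2 neither way (Mef2c and Spi1), which set beside that background is not in itself a result about the members. The scaling matters here. With library totals in place of trimmed-mean (TMM) factors, an alternative chosen after seeing the data, the median of all genes moved to -0.22 on the log2 scale and the split of calls from 2536 higher and 2247 lower to 1552 and 4112, so a fitted change is relative to the middle gene, whereas a level per 10,000 is relative to all UMIs.

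Sall1 stood at 2.97, 3.76, 3.6 and 3.73 UMIs per 10,000 in homeostatic-high cells of thalamus sets 1 to 4 and at 3.17, 3.81, 3.61 and 3.67 in those of HPC sets 1 to 4. In DAM-high cells it was 1.39, 1.72, 1.83 and 1.51 in thalamus sets and 1.6, 1.90, 1.93 and 2.06 in HPC sets. Every DAM-high value lay under every homeostatic-high value. The fitted change was -0.85 on the log2 scale (SE 0.0611, adjusted p = 2.4e-14, edgeR), lower in 8 of 8 sets. Mef2a fell in 8 of 8 sets as well, from 15.8 ± 1.2 (SD, n = 8) to 9.86 ± 0.746 per 10,000, a fitted -0.49 (SE 0.0580, adjusted p = 5.3e-09). Again the states did not overlap, with 13.4 to 17.2 against 8.91 to 11.1. Smad3 fell from 1.43 ± 0.121 to 1.08 ± 0.247 (SD, n = 8), in 7 of 8 sets, HPC set 3 being the exception at 1.65, and its fitted change was -0.28 (SE 0.0751, adjusted p = 0.0021). That call was lost at -0.19 with states taken from clusters (adjusted p = 0.0502) and at -0.10 with only DAM-high cells within 4 UMIs of the cut (adjusted p = 0.384), the latter chosen after seeing the data.

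The paralog Mef2c and the lineage factor Spi1 had lower levels per 10,000 in DAM-high cells of all 8 sets, but their fitted changes did not pass. Mef2c was 15.2 ± 1.5 in homeostatic-high and 12.2 ± 1.00 in DAM-high sums (fitted -0.12, SE 0.0581, adjusted p = 0.0882). Spi1 was 4.98 ± 0.256 and 4.12 ± 0.207 (fitted -0.07, SE 0.0567, adjusted p = 0.294). Scaled by library totals both were called lower, at -0.32 and -0.28, and over all alternatives Mef2c was called in 10 of 21 and Spi1 in 3 of 21, always lower. Irf8 went the other way with the scale: its levels were 4.75 ± 0.447 and 4.93 ± 0.583, higher in DAM-high cells of only 5 of 8 sets, and its fitted +0.26 (SE 0.0611, adjusted p = 0.00048) shrank to 0.06 by library totals (adjusted p = 0.394).

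The genes of the other direction were the MiT factor and the basic helix-loop-helix pair. Mitf stood at 4.09, 3.39, 3.24 and 3.49 in homeostatic-high and at 11.1, 7.23, 7.41 and 8.19 in DAM-high cells of thalamus sets 1 to 4. In HPC sets 1 to 4 the same values were 4.52, 3.62, 3.52 and 3.77, and 6.32, 5.50, 6.79 and 5.62. The states did not overlap in either region, and set 1 of each region was the highest of its region in homeostatic-high cells. The fitted change was 1.17 (SE 0.0841, adjusted p = 2.3e-14), higher in 8 of 8 sets. The thinned share of cells with a Mitf UMI moved less, from 38.9% to 50.4% in the thalamus and from 40.6% to 45.5% in the HPC (means over 4 sets). Without the Malat1-poor cells described below, the DAM-high shares were 63.5% in the thalamus and 50.3% in the HPC.

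Bhlhe40 was near absent from homeostatic-high cells. Only 11 UMIs were counted in 1843 such cells of the thalamus, 0.0132 per 10,000 (95% exact Poisson interval 0.00657 to 0.0236, counting error only), and 4 UMIs in 4287 such cells of the HPC, 0.00193 per 10,000 (0.000527 to 0.00495). In DAM-high cells 327 UMIs in 1650 cells gave 0.360 (0.322 to 0.401) in the thalamus, and 50 UMIs in 403 cells gave 0.230 (0.171 to 0.303) in the HPC. The DAM-high level was above the homeostatic-high level in 8 of 8 sets (adjusted p = 3.8e-18), and the fitted change of 5.45 (SE 0.286) depends on the prior count because 1 HPC set held 0 homeostatic-high UMIs. Even so it was seen in few DAM-high cells, 4.03% in the thalamus and 2.46% in the HPC after thinning. Bhlhe41 rose less, from 0.786 ± 0.0932 to 0.974 ± 0.145 per 10,000 (SD, n = 8), in 7 of 8 sets, with overlapping ranges (fitted 0.45, SE 0.0862, adjusted p = 3.4e-05).

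**Figure D2:**
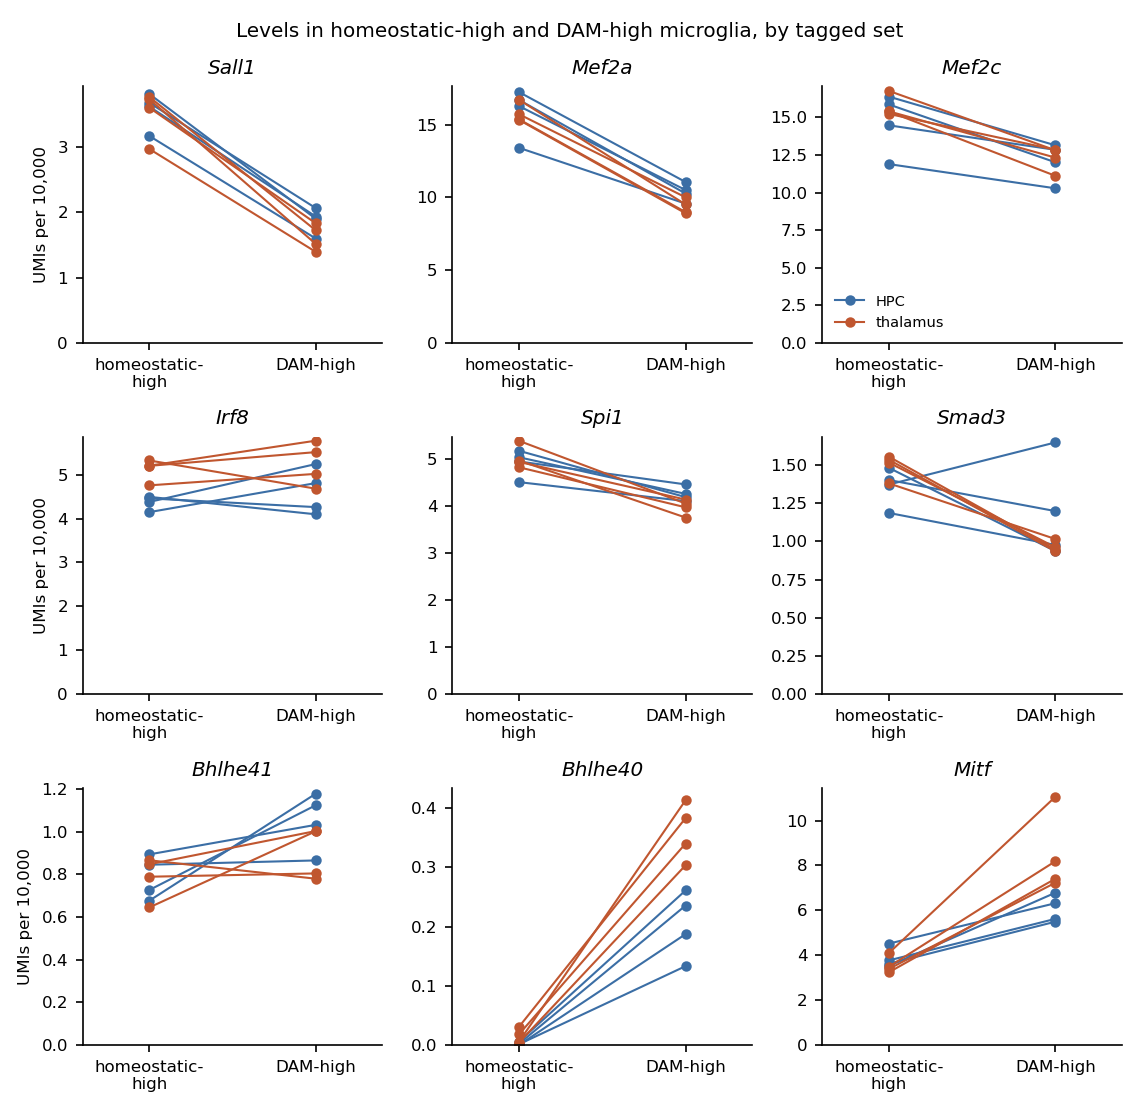
Level of each gene in UMIs per 10,000 (vertical axis, from 0) in homeostatic-high and DAM-high cells, with 1 line per tagged set (blue HPC, orange thalamus). The Sall1 and Mef2a lines fall and the Mitf and Bhlhe40 lines rise in 8 of 8 sets, and the thalamus lines of Mitf end at 7.23 to 11.1 against 5.50 to 6.79 in the HPC.

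A share of the DAM-high cells held little Malat1 (under 40 UMIs per 10,000): thalamus sets had 18.6% to 28.2% of such cells and HPC sets 1.85% to 20.1%. The members were not alike in these 398 Malat1-poor DAM-high cells of the thalamus. Mitf stood at 0.356 ± 0.227 (SD, n = 4), against 9.50 ± 2.28 in the DAM-high cells without them. Mef2a was 1.03 ± 0.192 against 10.4 ± 0.365, Mef2c 1.80 ± 0.310 against 13.6 ± 1.07, Sall1 0.293 ± 0.105 against 1.77 ± 0.208 and Smad3 0.103 ± 0.0812 against 1.07 ± 0.0306. The gap was smaller for Spi1, at 3.38 ± 0.431 against 4.07 ± 0.134, for Irf8 (2.90 ± 0.295 against 5.53 ± 0.569), for Bhlhe41 (0.573 ± 0.134 against 0.936 ± 0.119) and for Bhlhe40 (0.192 ± 0.0862 against 0.380 ± 0.0568). These cells were also shallower, with set medians of 2010 to 2555 UMIs. Malat1-poor cells were split off by a measured value, so no test was made. Left out of both states, they changed none of the 7 calls between states and added Spi1, at -0.14 (adjusted p = 0.0454).

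Then the regions were compared over all microglia-like cells, which differed between thalamus and HPC in 1843 of 12952 genes, 9.22% called higher and 5.01% lower in the thalamus (1194 and 649 genes, against 893 and 1087 with library totals). Same-numbered sets of the 2 regions deviated together in sets 1 and 3 (correlations of 0.513 and 0.479), and less so in sets 2 and 4 (0.142 and 0.182). Sets of unlike number reached 0.168, and the labels give no such pairing. With the number as a block 3928 genes were called, on a pairing taken from the same counts. Of the members, Bhlhe40 and Irf8 were called higher and Sall1 lower in the thalamus. Bhlhe40 was 0.202, 0.145, 0.114 and 0.128 in thalamus sets 1 to 4 and 0.0364, 0.0148, 0.0143 and 0.0140 in HPC sets 1 to 4. The groups did not overlap, and HPC set 1 stood above the other HPC sets (fitted 2.86, SE 0.335, adjusted p = 0.0012). Irf8 was 4.93, 4.71, 5.20 and 5.13 in thalamus sets and 4.19, 4.31, 4.42 and 4.46 in HPC sets, also without overlap (fitted 0.27, SE 0.0525, adjusted p = 0.0103).

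Sall1 was 2.05, 2.55, 2.77 and 2.65 in the thalamus sets and 2.71, 3.39, 3.45 and 3.31 in the HPC sets, so that thalamus set 3 lay above HPC set 1. Its fitted change of -0.29 (SE 0.0852, adjusted p = 0.0497) passed narrowly, and it did not pass without HPC set 2, 3 or 4 or thalamus set 1, 2 or 4 (adjusted p of 0.137, 0.119, 0.124, 0.0886, 0.0939 and 0.0778) or without Malat1-poor cells (0.0707) or the 5% of cells with most UMIs (0.0815), while blocking on the set number gave an adjusted p of 0.00042. Mitf was 7.33, 4.84, 4.53 and 5.41 in thalamus sets and 5.17, 3.95, 3.81 and 4.33 in HPC sets (fitted 0.43, SE 0.175, adjusted p = 0.127), and Mef2a 12.7 ± 1.04 and 15.0 ± 1.88 (SD, n = 4, fitted -0.17, SE 0.0881, adjusted p = 0.226). Both passed when blocked on the set number, Mitf at 0.41 (adjusted p = 0.00013) and Mef2a at -0.16 (adjusted p = 0.0259), and both without HPC set 1, at 0.56 (adjusted p = 0.0300) and -0.23 (adjusted p = 0.0303). Mef2c, Spi1, Smad3 and Bhlhe41 had fitted values between -0.03 and 0.10 (adjusted p of 0.330 to 0.969).

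These region values were read beside those within each state, since the thalamus held 1650 DAM-high and 1843 homeostatic-high cells and the HPC 403 and 4287. Within homeostatic-high cells 0.911% of 10976 genes were called, and by edgeR 0 of the 8 members tested were (1, Irf8, at an unadjusted p under 0.05, and 1, again Irf8, by DESeq2 after adjustment). Sall1 was then 3.51 ± 0.371 in the thalamus and 3.56 ± 0.278 in the HPC (SD, n = 4, fitted -0.01, SE 0.0744), and Mef2a 15.8 ± 0.644 and 15.9 ± 1.71 (fitted -0.01, SE 0.0741). Irf8 remained without overlap between regions, at 4.76 to 5.33 in the thalamus and 4.15 to 4.50 in the HPC, and its fitted 0.23 (SE 0.0571) did not pass (adjusted p = 0.0810) except in DESeq2 (adjusted p = 0.0040), without HPC set 1 (0.0186) and when blocked on the set number (0.0045). Bhlhe40 had too few UMIs to be tested there.

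Within DAM-high cells 2.07% of 9309 genes were called, Mitf alone among the members. The levels were those listed above, 8.47 ± 1.77 in the thalamus and 6.05 ± 0.607 in the HPC (SD, n = 4), and the lowest thalamus set (7.23) lay above the highest HPC set (6.79). The fitted change was 0.55 (SE 0.126, adjusted p = 0.0179). Thalamus set 1 was the highest, and without it the change was 0.39 (adjusted p = 0.0780). It did not pass either without HPC set 2 (0.51, adjusted p = 0.0794) or HPC set 4 (0.52, adjusted p = 0.0964), and in all 9 of 21 alternatives lost the call, with values of 0.32 to 0.62 over the 21. Bhlhe40 was 0.360 ± 0.0482 and 0.204 ± 0.0564, without overlap, and its fitted 0.69 (SE 0.226) did not pass (adjusted p = 0.131), though it did in 4 of 21 alternatives, at 1.21 to 1.42.

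Whether the state change itself differed between regions was tested by an interaction term over the 16 sums. Of 10747 genes 0.651% were called, and Mitf was the only member among them, at rank 7 by p-value. DAM-high cells held 2.37 ± 0.241 times the Mitf level of homeostatic-high cells in the thalamus and 1.58 ± 0.234 times in the HPC (SD, n = 4), with ranges of 2.13 to 2.70 and 1.4 to 1.93. On the log2 scale the mean changes in level were 1.24 and 0.651. The fitted difference, scaled by TMM factors, was 0.72 (SE 0.105, adjusted p = 9.8e-06). It passed in all 20 alternatives run, at 0.40 to 0.78. DAM-high cells of the thalamus also held more of the DAM list, with set means of 14.8 to 18.7 thinned UMIs against 11.5 to 13.3 in the HPC. With only cells up to 4 UMIs above the cut, where the set means were 10.4 to 10.8 and 10.2 to 10.6, the difference in Mitf was 0.67 (adjusted p = 0.0037), and HPC sets held 4.66 to 6.01 Mitf UMIs per 10,000 against 5.69 to 10.9 in the thalamus, which overlapped. The other 8 members had adjusted p of 0.598 to 0.999. Among them Sall1 alone passed in any alternative, with DAM-high cells taken from the 75th percentile of the DAM list (-0.36, adjusted p = 0.0047).

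**Figure D3:**
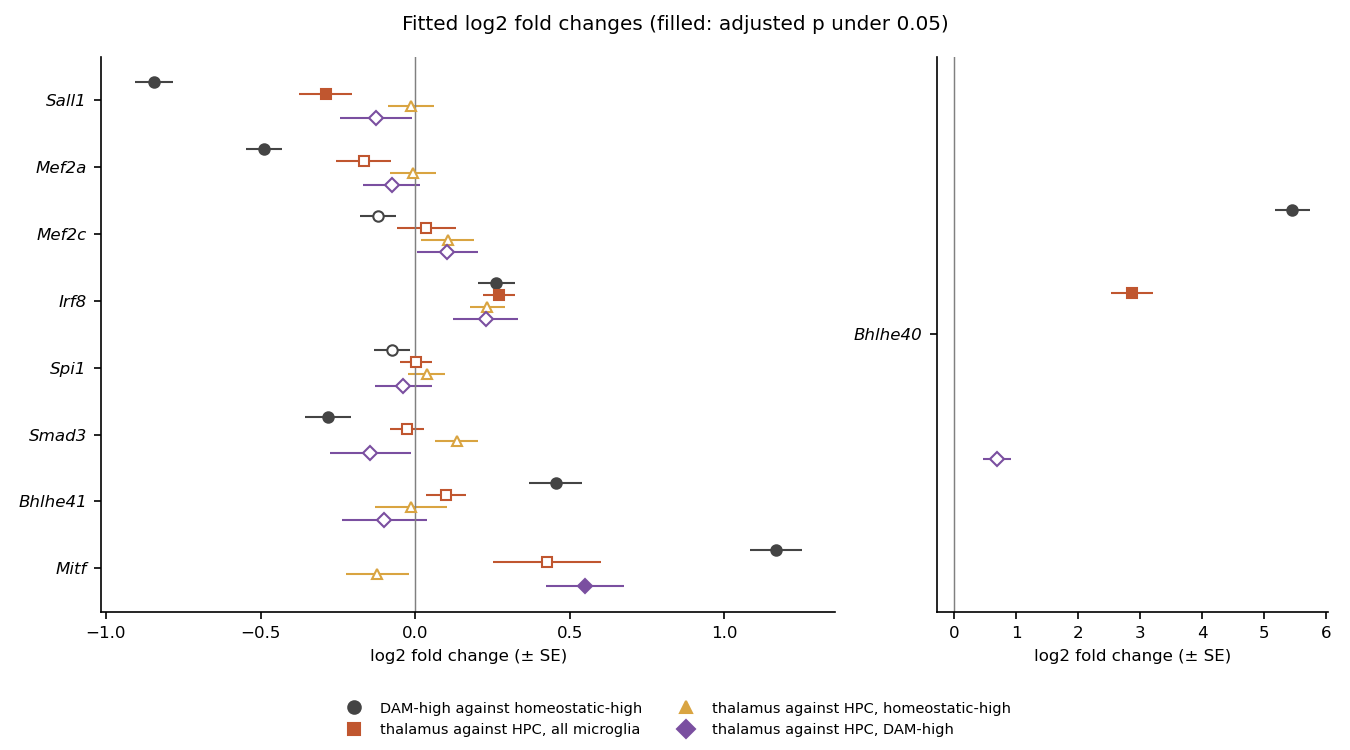
Fitted log2 fold changes (horizontal axis, bars ± SE) of the members between states and between regions, with Bhlhe40 on its own wider axis. Filled symbols passed an adjusted p of 0.05: 7 members do so between states, and Mitf alone between regions in DAM-high cells.

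The members were also followed along the DAM list without a gate, in bands of thinned DAM UMIs per cell, as a description. Mitf was alike between regions at 0 to 2 DAM UMIs, at 3.87 ± 0.466 in the thalamus and 4.17 ± 0.555 in the HPC (SD, n = 4), and at 3 to 5 UMIs (4.30 ± 0.422 and 4.27 ± 0.642). At 6 to 8 the means were 5.44 ± 0.890 and 4.62 ± 0.750, with overlapping sets. At 9 to 13 it reached 7.61 ± 1.99 and 5.59 ± 0.340, with the lowest thalamus set (5.73) under the highest HPC set (5.90), and at 14 or more 8.48 ± 1.14 in the thalamus and 6.37 in the 2 HPC sets with enough cells. Sall1 fell over the same bands, from 3.25 ± 0.346 and 3.42 ± 0.315 at 0 to 2 UMIs to 1.97 ± 0.315 and 2.07 ± 0.275 at 9 to 13, with regions overlapping in both of these bands. The gap between the regions was widest at 6 to 8 UMIs, at 2.33 ± 0.288 in the thalamus and 2.94 ± 0.281 in the HPC, where the highest thalamus set (2.76) lay above the lowest HPC set (2.70). Bhlhe40 was higher in the thalamus in the bands from 3 UMIs on, at 0.0471 ± 0.0178 against 0.00906 ± 0.00719 at 3 to 5 UMIs and 0.125 ± 0.0348 against 0.0399 ± 0.0159 at 6 to 8. At 9 to 13 it was 0.290 ± 0.0504 against 0.153 ± 0.0606, where the lowest thalamus set (0.233) met the highest HPC set (0.236). At 14 or more, thalamus sets held 0.368 to 0.496 and the 2 HPC sets with enough cells 0.183 to 0.330.

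**Figure D4:**
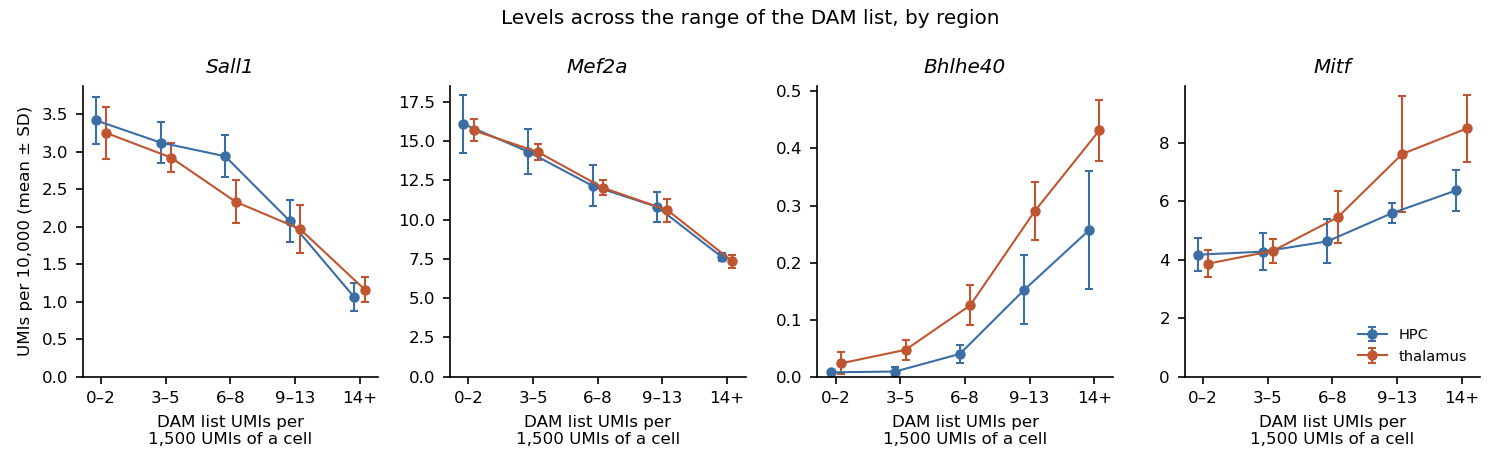
Mean level in UMIs per 10,000 (vertical axis, from 0, bars ± SD over sets) of Sall1, Mef2a, Bhlhe40 and Mitf by band of the DAM list (thinned UMIs per cell), for HPC (blue) and thalamus (orange), with 4 sets per point but 2 for the HPC at 14 or more. Sall1 and Mef2a decline along the list in both regions, and the Mitf mean is higher in the thalamus from 6 to 8 UMIs on (5.44 and 4.62, then 7.61 and 5.59 at 9 to 13).

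In the remaining states the levels are a description. In MHC-II-high cells the regions stood apart for several members: Sall1 was 1.22 to 1.64 in the thalamus and 2.11 to 2.68 in the HPC, Mef2a 7.75 to 10.2 and 11.5 to 14.1, Mitf 6.17 to 7.6 and 4.59 to 5.76, and Bhlhe40 0.298 to 0.499 and 0 to 0.0861. The DAM list moved with these values, at 68.6 to 115 UMIs per 10,000 in MHC-II-high cells of the thalamus and 23.2 to 42.8 in those of the HPC, as did the Malat1-poor share (20.4% to 38.8% and 0% to 7.32%). Their part in the difference was not tested. Interferon-high cells held Irf8 at 4.79 to 5.67 and 4.33 to 5.96, overlapping each other and the homeostatic-high ranges, although Irf8 belongs to the interferon regulatory factor family. Cycling-high cells reached 20 in thalamus set 1 only, where 53 cells held Mitf at 1.77 and Mef2a at 6.26. Of these cells 66.0% were Malat1-poor, and the part of that in the levels was not tested.

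**Figure D5:**
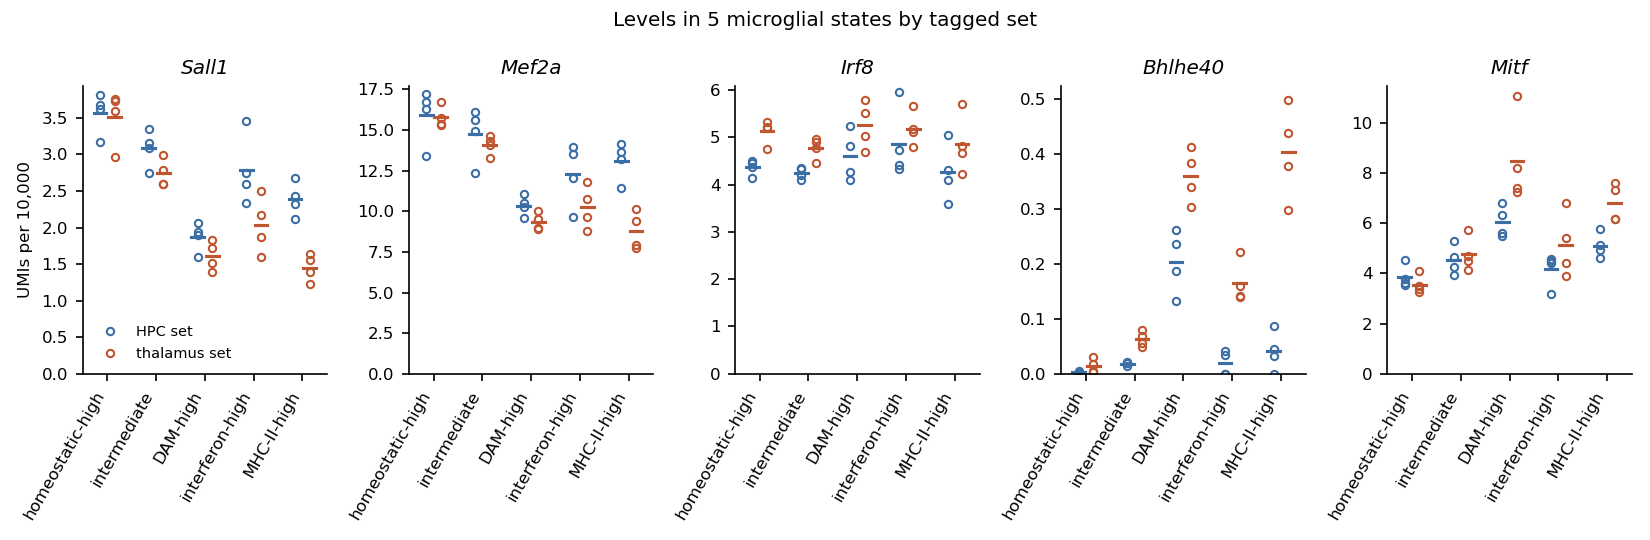
Level in UMIs per 10,000 (vertical axis, from 0) of 5 members in 5 microglial states, with 1 circle per tagged set (blue HPC, orange thalamus) and a bar at the mean. Irf8 stays between 3.59 and 5.96 in every state, whereas Bhlhe40 in MHC-II-high cells is 0.298 to 0.499 in the thalamus and 0 to 0.0861 in the HPC.

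Around the members, a list of 48 other regulators of myeloid cells was read in the same fits. Between states 45 of the 48 were tested, 13 were called higher and 19 lower in DAM-high cells (24.9% and 22.0% of all genes), with a median change of -0.11 against -0.0041 for all genes. Among those that moved one way in 8 of 8 sets, the largest rises were of Irf7 (1.91, SE 0.236, adjusted p = 1.3e-08), an interferon-induced factor, of Hif1a, the oxygen-sensing factor (1.69, SE 0.0806, adjusted p = 2.4e-19), and of Id2, an inhibitor of helix-loop-helix factors (1.65, SE 0.0942, adjusted p = 3.6e-17). The level of Irf7 was low, at 0.138 ± 0.0986 UMIs per 10,000 in DAM-high and 0.0397 ± 0.0177 in homeostatic-high sums (SD, n = 8). The largest falls were of Maf (-0.94, SE 0.0705), of the Sall1 paralog Sall3 (-0.53, SE 0.0684) and of the NF-kappaB subunit Rel (-0.52, SE 0.0673). Between regions, over all microglia-like cells, 8 of 47 tested were called higher and 3 lower in the thalamus (9.22% and 5.01% of all genes). The Krüppel-like factors Klf2 (2.04, SE 0.165) and Klf4 (0.97, SE 0.119) and the early response factor Egr2 (1.08, SE 0.179) led the rises, and Maf (-0.35, SE 0.0723), Bach1 (-0.19, SE 0.0413) and the Mitf relative Tfe3 (-0.15, SE 0.0438) the falls. Within homeostatic-high cells 4 of 45 were called higher and 0 lower (0.738% and 0.173% of all genes), among them Klf2, Egr2 and Klf6 at 2.36, 0.96 and 0.56. Within DAM-high cells 2 of 44 were called higher and 0 lower (1.54% and 0.537% of all genes), Klf2 at 1.36 (SE 0.21) and Klf4 at 1.17 (SE 0.293). In the interaction 2 of 45 were called higher and 0 lower (0.484% and 0.167% of all genes), among them the TGF-beta receptor gene Tgfbr2 (0.42, SE 0.103, adjusted p = 0.0271). Klf and Egr genes belong to the early response that tissue dissociation is known to set off, and a dissociation list of 12 genes stood at 52.9 to 67.9 UMIs per 10,000 in homeostatic-high cells of the thalamus and at most at 47.1 in those of the HPC. In DAM-high cells the same list overlapped between regions, at 29.5 to 39.2 and 25.6 to 31.5. Its part was not tested.

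A second list held 13 lysosomal and vacuolar genes known as MiT family targets. Between states 10 were tested and 10 were called higher in DAM-high cells (median 0.78, against -0.0041 for all genes tested and 24.9% called higher among them). The list was chosen with earlier results of these data known, and the cells were gated on DAM markers. The count is thus a description, and activity of the MiT factors was not tested. Ctsd, the aspartic protease cathepsin D, was 101 ± 21 UMIs per 10,000 in DAM-high and 41.0 ± 4.0 in homeostatic-high sums (SD, n = 8, fitted 1.47, SE 0.0822, adjusted p = 2.1e-17). Atp6v1a, a subunit of the proton pump, rose by 1.05 (SE 0.0734) and Ctsa, a lysosomal carboxypeptidase, by 1.02 (SE 0.0695). Between regions in all microglia-like cells 3 of 13 were called higher in the thalamus (Atp6v0d2, Ctsd and Ctsa), against 9.22% of all genes. In homeostatic-high cells 0 of 10 tested were called, against 0.738% higher among all genes, and in DAM-high cells 1 of 11, against 1.54%, the hexosaminidase subunit Hexa (0.49, SE 0.107, adjusted p = 0.0129). In the interaction 3 of 11 were called, all with the larger state change in the thalamus, as were 0.484% of all genes: Hexa (0.58, SE 0.103, adjusted p = 0.00043), Ctsd (0.57, SE 0.104, adjusted p = 0.00069) and Ctsa (0.47, SE 0.104, adjusted p = 0.0104).

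Last, the genes with the most similar pattern to each member were listed from 36 sums (5 states by set, at least 50 cells each). Pearson's r of log2(CPM + 1) was taken over these 36 sums (CPM are UMIs scaled to a fixed total). The genes compared were the 6976 with a mean of at least 20 CPM. These sums share libraries and states, so r is a description. Sall1 was closest to P2ry12 (0.974, a gate gene), Gtf2h2 (0.969) and Cttnbp2nl (0.958), and Mef2a to Elmo1 (0.964), Fam49b (0.962) and Bank1 (0.959). Bhlhe40 was closest to Igf1 (0.965) and Lpl (0.958), both gate genes, and to Anxa5 (0.956). Its own mean was 13.5 CPM, under the limit asked of the genes compared with it. Its homeostatic-high sums were near the floor, with 11 UMIs in the thalamus and 4 in the HPC. Mitf was closest to Fmn1 (0.936), Hif1a (0.917) and Gng12 (0.915). Mef2c was closest to Adcy9 (0.904), Gm46367 (0.898) and Numb (0.889), Smad3 to Pias1 (0.901), Pan3 (0.891) and Rnf216 (0.883), and Spi1 to Itga9 (0.887), Ecscr (0.884) and Celf2 (0.882). Irf8 and Bhlhe41 had no gene as close, their first being Scarb1 (0.729) and Dhps (0.627).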

How the data were processed

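Single-cell libraries were made with the 10x 3′ kit, and the authors deposited 1 matrix of raw UMI counts per tagged set, made with Cell Ranger against GRCm38. The file headers name a later version than the methods, and whether intron reads were counted is not given in the sources used here. The members and lists were chosen with earlier results of these data known, and 1 gene of the DAM list is not reported here. Cells with 200 to 7500 genes and at most 2% mitochondrial UMIs were kept. No doublet caller was run, and the 5% of cells with most UMIs were left out as an alternative. Clusters were made in Seurat 5.3.0 (R 4.3.3) without the members and named from markers, and 804 cells stayed unnamed. States were gated on cells thinned to 1500 UMIs, with the DAM cut at the 85th percentile, and 149 microglia-like cells were too shallow for one. Cells were never replicates: the deposited counts were summed by set and state (at least 20 cells) and tested with edgeR 4.0.16 (quasi-likelihood, TMM factors, low-count filter, two-sided), adjusting over all genes tested. DESeq2 1.42.0 was an alternative. The scripts were tested on simulated data. Labels do not say that sets are separate mice, so p-values measure the spread between sets, which may be technical. Set numbers, carried by the matrices, were taken to pair the regions from the data alone: deviations of same-numbered sets correlated at 0.513, 0.142, 0.479 and 0.182. Those of unlike number correlated at -0.47 to 0.168, which overlaps. Values blocked on the set number rest on this pairing, which the labels do not give. No barcode was shared between matrices of a region, and 65 occurred in both regions. All members were named, with 3 most similar genes each and up to 3 list genes in each direction with no overlap between groups, or, between states, one direction in all sets. Intervals cover counting error only.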

Additional observations from a re-analysis of the deposited data

Results flagged for a closer look

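Among 54 groups of 4 sets, 2 held a set far from the other 3 by Dixon's criterion, where chance gives about 5% of groups. Bhlhe40 in microglia-like cells of the HPC was 0.0364 UMIs per 10,000 in set 1 and 0.0140 to 0.0148 in the others. Mef2c in homeostatic-high cells of the thalamus was 16.8 in set 3 and 15.2 to 15.4 in the others. The change of Mitf between homeostatic-high and DAM-high cells differed between the regions by an interaction term, at 0.72 on the log2 scale (SE 0.105, adjusted p = 9.8e-06, edgeR), with the larger change in the thalamus in 4 of 4 sets.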

How the results depend on the processing

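The state changes of Sall1, Mef2a, Mitf, Bhlhe41 and Bhlhe40 and the Mitf interaction kept their direction and passed in all alternatives that gave a value. Of 843 member values under alternatives, 728 kept direction and side of the threshold, 26 came to pass, 20 no longer passed and 69 changed sign. Of those 69, 0 were called in either fit, and the largest was 0.263 in size. Leaving out 1 set at a time gave 833 to 3064 genes called between regions in all microglia-like cells (1843 with all sets), 42 to 387 in homeostatic-high cells (100), 112 to 187 in DAM-high cells (193) and 43 to 86 in the interaction (70). The count of 3064 and that of 387 came without HPC set 1, 833 without HPC set 2, and 42 and 43 without thalamus set 3. With the set number as a block the counts were 3928 between regions and 553 in homeostatic-high cells. Besides the calls given above for the block, it changed no call of a member. Between states, the fit without the block called 5176 genes. In homeostatic-high cells DESeq2 called 152, and the fit without the low-count filter and that with states from clusters called 405 each. In DAM-high cells the count was 362 without the filter, 73 and 684 with the cut at the 90th and 75th percentile, 406 with clusters and 70 with cells up to 4 UMIs above the cut. In the interaction it was 129, 40, 392, 275 and 19 in the same order, and 132 without the 5% of cells with most UMIs. Between states, cells up to 4 UMIs above the cut gave 3085. That last alternative and library totals were chosen after seeing the data. With library totals, 893 genes were called higher and 1087 lower between regions (1194 and 649 with TMM) and 1552 and 4112 between states (2536 and 2247). The cause of these changes was not tested. The call of Mitf between regions in DAM-high cells was lost also at 0.392 with a mitochondrial limit of 5%, 0.388 with a per-cell gate, 0.356 from the 90th percentile, 0.419 with gates on 3000 UMIs, 0.316 with clusters and 0.539 up to 4 UMIs above the cut. From the 90th percentile HPC sets 3 and 4 fell under 20 cells and were dropped. Depth limits Bhlhe40 most, with 11 and 4 UMIs in homeostatic-high cells of the regions. Log2 values that changed sign follow, with their comparison in brackets. Without the low-count filter, these were Spi1 -0.005 (region in all microglia-like cells), Spi1 0.003 (region in DAM-high cells) and Mef2a 0.019, Spi1 0.015 and Bhlhe41 0.045 (interaction). Without Malat1-poor cells, these were Spi1 -0.005 and Smad3 0.006 (region in all microglia-like cells) and Bhlhe41 0.023 (interaction). With a per-cell gate for microglia, these were Spi1 -0.011 (region in all microglia-like cells), Bhlhe41 0.03 (region in homeostatic-high cells), Spi1 0.02 (region in DAM-high cells) and Irf8 -0.054, Spi1 0.021 and Bhlhe40 0.263 (interaction). With library totals, these were Mef2c -0.037 and Spi1 -0.066 (region in all microglia-like cells) and Mef2c -0.081 and Irf8 -0.061 (interaction). With gates on 3000 UMIs, these were Sall1 0.019 and Mef2a 0.001 (region in homeostatic-high cells) and Bhlhe41 0.047 (interaction). With the set number as a block, these were Bhlhe41 0.008 (region in homeostatic-high cells). With a mitochondrial limit of 5%, these were Smad3 0.122 (region in DAM-high cells) and Irf8 -0.077, Smad3 0.018, Bhlhe41 0.127 and Bhlhe40 0.075 (interaction). With DAM-high cells from the 90th percentile, these were Sall1 0.013, Mef2a 0.099, Irf8 -0.041, Smad3 0.168 and Bhlhe41 0.026 (region in DAM-high cells) and Sall1 0.033, Mef2a 0.099, Irf8 -0.217 and Bhlhe41 0.233 (interaction). With DAM-high cells from the 75th percentile, these were Bhlhe41 0.123 (region in DAM-high cells) and Irf8 -0.022 and Bhlhe41 0.185 (interaction). With DAM-high cells up to 4 UMIs above the cut, these were Mef2a 0.051, Spi1 0.042 and Smad3 0.012 (region in DAM-high cells) and Mef2a 0.054 and Spi1 0.006 (interaction). In DESeq2, these were Mef2c -0.009 (interaction). Leaving out 1 set at a time, values that crossed 0 ran over Mef2c -0.036 to 0.101, Spi1 -0.016 to 0.023 and Smad3 -0.071 to 0.004 (region in all microglia-like cells), Sall1 -0.05 to 0.043, Mef2a -0.069 to 0.02, Spi1 -0.003 to 0.051 and Bhlhe41 -0.091 to 0.081 (region in homeostatic-high cells) and Mef2a -0.066 to 0.013, Mef2c -0.006 to 0.071, Irf8 -0.027 to 0.116 and Bhlhe41 -0.211 to 0.118 (interaction).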
